A study of Mus musculus with 8 samples.

Results

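The genes described here are 36 genes of the cell division cycle and of DNA replication, taken by symbol from the 56832 rows of a table of RNA-seq values in sorted mouse microglia, and all 36 were present. The cells came from brains of young adult male 5xFAD mice, a line that carries transgenes for mutant human amyloid precursor and presenilin proteins under a neuronal promoter and forms amyloid plaques, so both groups share that background. Mice of the ethanol group were injected intraperitoneally with 3 g/kg ethanol as a 20% solution on 5 days a week for 4 weeks, those of the control group with saline, and both were then left for 2 weeks without injections. Each group had 4 libraries, numbered 1 to 4 after their titles, and the comparison asks whether past ethanol exposure altered the transcriptome of the cells. The titles call the libraries separate samples and do not tie them to single mice, so p-values here measure the spread between libraries, part of which may be technical. The libraries held 14271351 to 17231301 assigned reads each. Values are DESeq2-normalized counts, that is, reads divided by a size factor close to 1, and a gene was tested when its mean over the 8 libraries was at least 10, which 35 of the 36 genes reached. In a principal component analysis of the tested genes ethanol 4 stood apart on the first component, and saline 4 on the second. On the first, samples 1 and 2 of either group had negative values (-31.4 to -13.9) and samples 3 and 4 positive ones (4.58 to 60.7).

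Microglia are resident macrophages that maintain their number by occasional division, and they divide more in brains with amyloid plaques. Entry into the cycle begins when D-type cyclins activate Cdk4, which releases E2F transcription factors from the retinoblastoma protein. E2F then drives the cyclin E, MCM helicase and nucleotide supply genes of S phase, and a later wave, controlled through the MuvB complex with B-Myb and FoxM1, drives the genes of mitosis.

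Promoters of these genes are shown because the correlations given further on group the genes by the elements they hold. RefSeq promoters of the build GRCm38.p6, running from 250 bases before to 50 bases after an annotated start, were matched by symbol for 28 of the 36 genes, with 30 promoters among them. The table of values was made on GRCm39, and the promoters served for their letters only. Searched on both strands, with overlapping matches each counted, were the cell cycle gene homology region or CHR (TTTGAA), the CCAAT box (CCAAT) and 4 spellings of an E2F element (TTTCCCGC, TTTCGCGC, TTTGCCGC and TTTGGCGC). Of the 14 promoters of mitotic genes 10 held both TTTGAA and CCAAT, which is 71.4%, against 6.95% of all 32851 promoters in the table. Of the 12 promoters of cyclin E, Cdk2, MCM, fork and nucleotide supply genes 5 held an E2F spelling, which is 41.7%, against 2.26% of all promoters. TTTGAA by itself occurred in 17.9% and CCAAT in 37.4% of all promoters, so single matches are common. A match describes the letters and is not evidence of a bound factor.

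In the following 6 promoters, written 5′ to 3′ on the strand of the gene, capitals mark every match to these letters on either strand. The windows were Mki67 at chr7:135716330-135716629 (minus strand), Top2a at chr11:99024140-99024439 (minus strand), Ccnb2 at chr9:70421505-70421804 (minus strand), Mcm5 at chr8:75109259-75109558 (plus strand), Mcm6 at chr1:128359656-128359955 (minus strand) and Rrm2 at chr12:24708004-24708303 (plus strand). Mki67, Top2a and Ccnb2 represent the mitotic pattern, Mcm5 and Mcm6 the E2F pattern, and Rrm2 is the gene with the smallest p of the 35.
Mki67: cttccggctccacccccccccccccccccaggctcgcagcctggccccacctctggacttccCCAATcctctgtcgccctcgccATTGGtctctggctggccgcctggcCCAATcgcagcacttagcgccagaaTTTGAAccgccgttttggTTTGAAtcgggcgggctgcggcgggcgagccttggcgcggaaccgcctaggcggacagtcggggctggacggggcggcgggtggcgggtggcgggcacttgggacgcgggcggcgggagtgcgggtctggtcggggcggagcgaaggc
Top2a: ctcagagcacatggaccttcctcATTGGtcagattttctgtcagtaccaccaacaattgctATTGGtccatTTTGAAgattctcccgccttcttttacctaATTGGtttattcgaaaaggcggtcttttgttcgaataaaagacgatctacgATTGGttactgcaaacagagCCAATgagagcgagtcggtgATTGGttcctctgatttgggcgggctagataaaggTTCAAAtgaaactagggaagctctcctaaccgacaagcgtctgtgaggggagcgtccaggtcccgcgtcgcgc
Ccnb2: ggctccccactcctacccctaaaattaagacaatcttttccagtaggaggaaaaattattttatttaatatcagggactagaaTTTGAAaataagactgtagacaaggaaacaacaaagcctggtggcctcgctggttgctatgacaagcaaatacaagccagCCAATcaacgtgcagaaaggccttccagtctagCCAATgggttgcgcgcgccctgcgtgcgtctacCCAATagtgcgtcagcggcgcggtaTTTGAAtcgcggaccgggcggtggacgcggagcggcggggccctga
Mcm5: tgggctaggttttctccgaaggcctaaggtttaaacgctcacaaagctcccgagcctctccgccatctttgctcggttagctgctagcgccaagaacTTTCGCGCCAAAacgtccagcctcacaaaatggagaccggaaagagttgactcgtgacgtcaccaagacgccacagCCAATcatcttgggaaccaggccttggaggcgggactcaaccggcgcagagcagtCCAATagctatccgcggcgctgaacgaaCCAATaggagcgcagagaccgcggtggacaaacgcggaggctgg
Mcm6: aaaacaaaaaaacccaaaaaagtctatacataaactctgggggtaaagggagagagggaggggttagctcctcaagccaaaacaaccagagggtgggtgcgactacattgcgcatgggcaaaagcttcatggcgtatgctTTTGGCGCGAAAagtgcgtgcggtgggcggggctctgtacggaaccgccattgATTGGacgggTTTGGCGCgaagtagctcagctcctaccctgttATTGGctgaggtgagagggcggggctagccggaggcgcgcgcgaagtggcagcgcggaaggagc
Rrm2: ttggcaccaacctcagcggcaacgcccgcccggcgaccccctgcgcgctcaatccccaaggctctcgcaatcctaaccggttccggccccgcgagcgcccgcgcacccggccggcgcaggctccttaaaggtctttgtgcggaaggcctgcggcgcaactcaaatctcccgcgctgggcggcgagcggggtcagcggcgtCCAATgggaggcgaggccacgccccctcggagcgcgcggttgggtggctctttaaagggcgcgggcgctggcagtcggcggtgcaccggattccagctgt
Mki67, Top2a and Ccnb2 each held 2 CHR matches, with 3, 6 and 3 CCAAT matches. Mcm5 held 2 E2F matches that overlap, Mcm6 held 3 of which 2 overlap, and neither held TTTGAA. Rrm2 held 1 CCAAT match and none of the other letters.

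**Figure D1:**
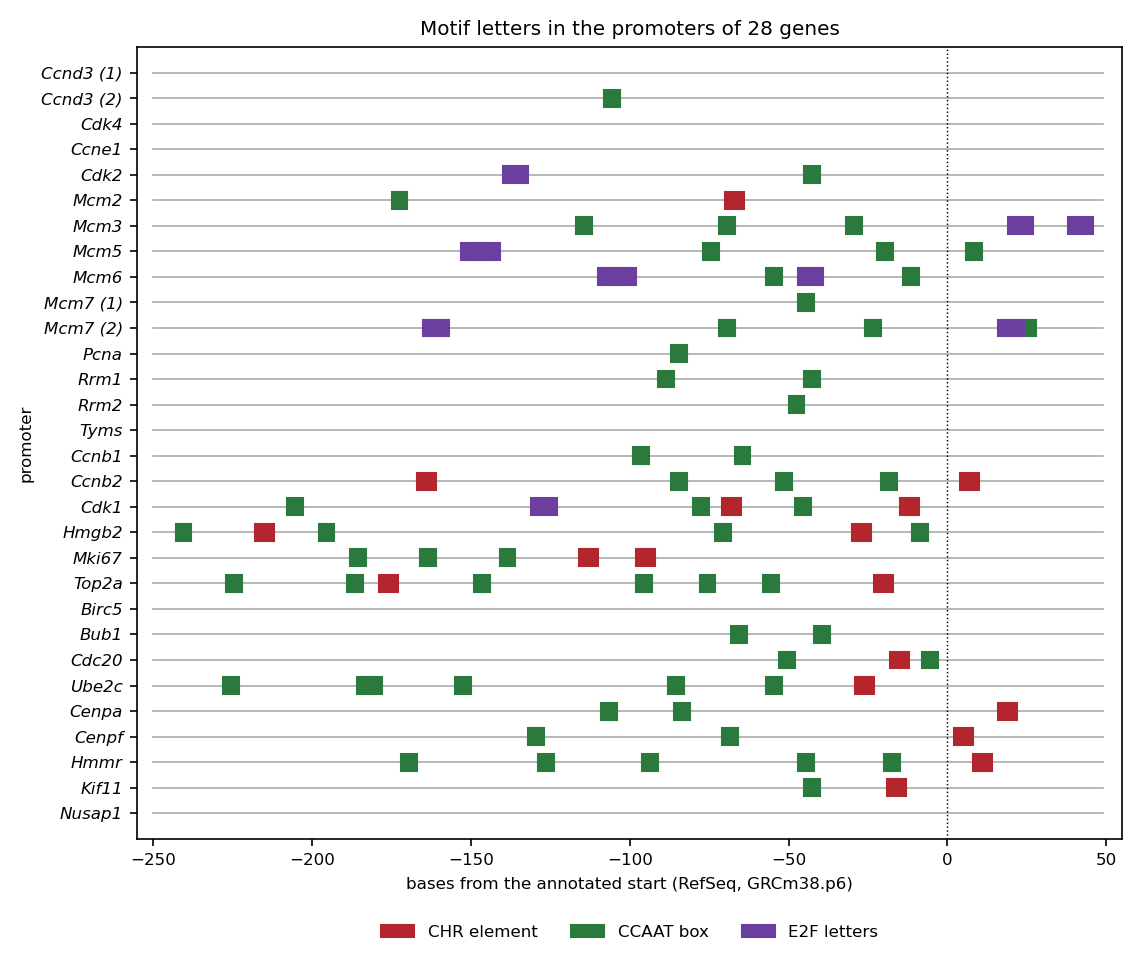
Positions of the CHR, CCAAT and E2F letters, on either strand, in the 30 RefSeq promoters of 28 genes, in bases from the annotated start (dotted line); rows follow the order of the cycle and a number in brackets marks alternative promoters. CHR letters occur mostly in the lower rows of mitotic genes, and E2F letters mostly in the rows of the MCM genes.

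The genes fell into 2 ranges of level. Of the 36, 13 had a mean between 217 and 1129 normalized counts, and these were Cdk4, Ccnd3, Ccnd1, Cdk2, Mcm3, Mcm4, Mcm6, Mcm7, Pcna, Tyms, Rrm1, Hmgb2 and Stmn1. The other 23 had means from 9.41 to 92.3, and they included each of the A, B and E cyclins, Cdk1, Mki67, Top2a and all members of the spindle, centromere, checkpoint and mitotic exit groups other than Stmn1. Divided by the union of exon lengths in GENCODE M21, the abundant genes had 46.1 to 347 normalized counts per kb and the scarce ones 2.31 to 23.2, so the ranges did not overlap per length either. Cdk4, the kinase partner of D-type cyclins, was highest per length at 347 per kb, followed by the MCM subunit gene Mcm3 at 265, the microtubule destabilizer gene Stmn1 at 214, the chromatin protein gene Hmgb2 at 163 and the sliding clamp gene Pcna at 144. Mki67, which encodes the proliferation antigen Ki-67, had 4.47 per kb and the kinetochore gene Cenpf 2.31. The summed share of all 36 genes was 0.0465% to 0.0519% of the normalized counts of a library, and that of the 23 scarce genes was 0.00455% to 0.00689%, lowest in ethanol 4 and highest in saline 3.

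**Figure D2:**
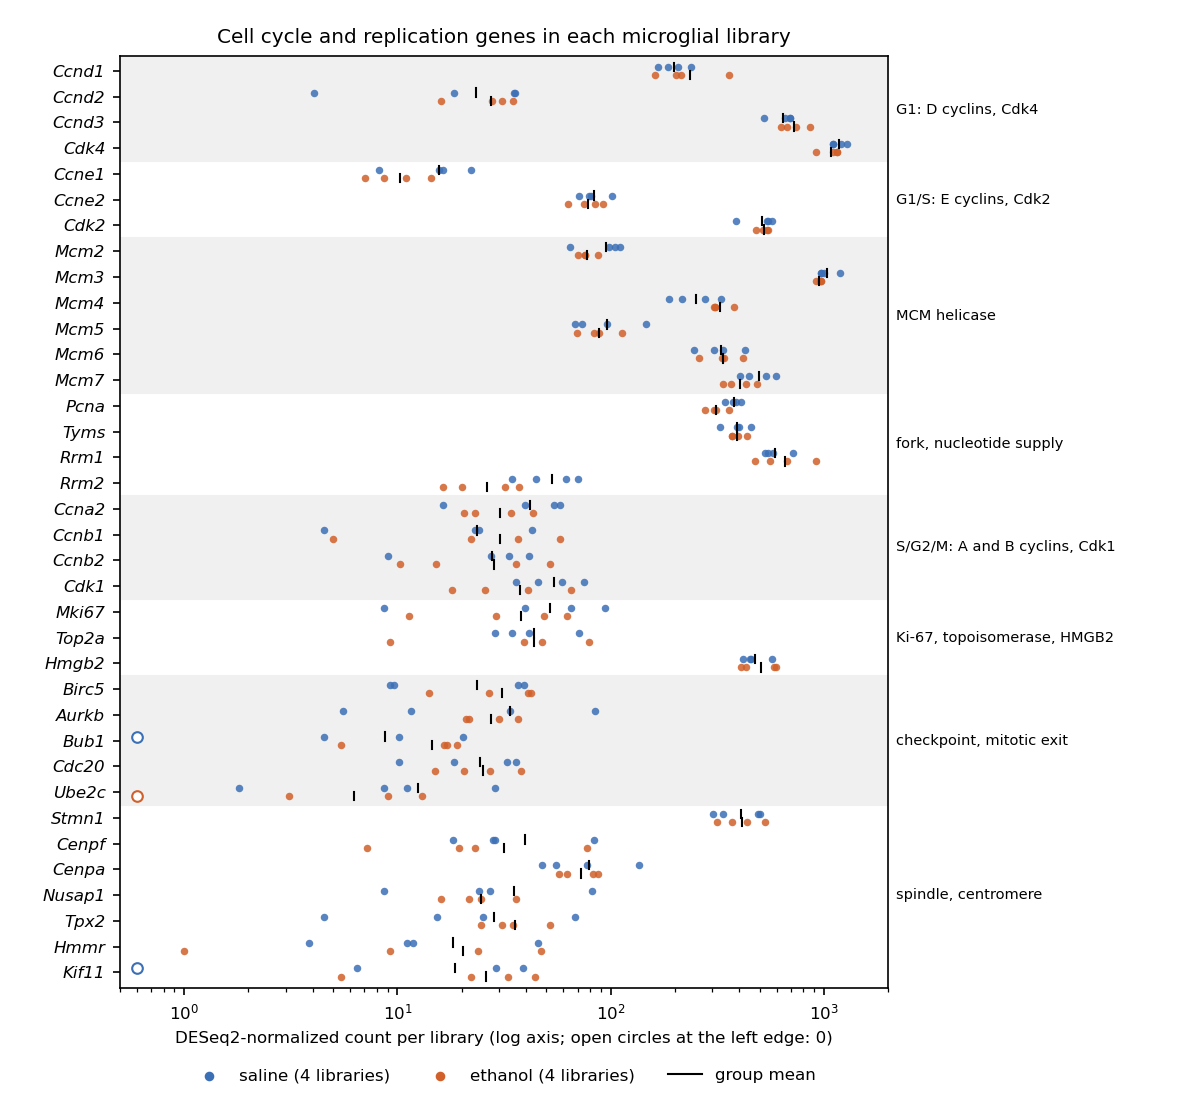
Normalized counts of the 36 genes in each of 4 saline (blue) and 4 ethanol (orange) libraries on a log axis, ordered by role, with black bars at group means and open circles at the left edge for a value of 0. Rows of scarce genes such as Mki67, Hmmr and Aurkb lie below 100 and spread far more widely than those of Mcm3 or Cdk4.

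None of the genes was called different between ethanol and saline microglia. The limma fit called 0 of the 35 tested genes at a threshold of 0.05 on the Benjamini-Hochberg adjusted p, and 0 of all 14428 genes tested (0%), with no adjusted p below 0.997. By the unadjusted p, under 0.05, 1 of the 35 genes lay on the higher side, Mcm4, against 1.7% of all tested genes. On the lower side lay 1 of the 35, Rrm2, against 1.93%. Over all tested genes 524, or 3.63%, passed that limit in either direction. Mcm4 no longer passed it without saline 1, saline 3 or any 1 of the ethanol libraries, and Rrm2 no longer without saline 1, saline 2, ethanol 1 or ethanol 2. With a term for the number carried by the library names, which recurs in both groups, neither passed it. The count models also called 0 of these genes, with 1 at an unadjusted p under 0.05 in edgeR, 1 in DESeq2 and 2 in voom. Positive and negative differences were nearly balanced at 17 and 18, the median log2 difference was -0.03, and that of all tested genes was -0.0054. In no gene did the 4 ethanol libraries lie wholly above or below the 4 saline libraries, which was the case for 2.32% of all tested genes. In this bulk RNA, a change in the number of dividing cells could not be told apart from a change in RNA per dividing cell.

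Genes of cell cycle entry were expressed in every library and did not differ past the threshold. Ccnd3, the most abundant D-type cyclin gene, had 526, 697, 696 and 659 normalized counts in saline libraries 1 to 4 and 632, 674, 738 and 860 in ethanol libraries 1 to 4. Its ethanol values reached higher but the groups overlapped, with a fold of 1.13 (95% interval 0.930 to 1.36). Ccnd1 had 166 to 239 in saline and 161 to 361 in ethanol, and the highest value belonged to ethanol 3 alone (fold 1.14, 0.815 to 1.59). Ccnd2 was scarce, at 4.08 to 35.4 in saline and 16 to 34.8 in ethanol, and saline 3, with 4 reads, was lowest. Cdk4 had 1173 ± 84.9 in saline (SD, n = 4) and 1084 ± 114 in ethanol (SD, n = 4), a fold of 0.922 (0.792 to 1.07). Exons of Cdk4 overlap exons of the antisense neighbour Tspan31, which had a mean of 2509. Reads from the shared stretch cannot be told apart in libraries that do not mark strand, and the length of that stretch was not measured. The same limit held for 8 of the 36 genes with an antisense gene at a mean of at least 10. These were Ccna2, Ccnd1, Ccnd3, Ccne2, Cdc20, Cdk2, Cdk4 and Mcm7.

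The kinase Cdk2 and its E-type cyclins act at the start of S phase, and their levels differed widely from each other. Cdk2 stood at 513 ± 85.5 normalized counts in saline (SD, n = 4) and 522 ± 29.2 in ethanol (SD, n = 4), with a fold of 1.03 (95% interval 0.839 to 1.26). Saline 4, at 386, was the lowest of the 8 libraries. Ccne2 had 71.4 to 102 in saline and 63.2 to 92.3 in ethanol, a fold of 0.944 (0.647 to 1.38). Ccne1 had 8.18 to 22.2 and 7.02 to 14.4, close to the minimum for testing, and its interval of 0.291 to 1.66 left room for a change of 2-fold or more downward.

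All 6 subunits of the MCM helicase, which opens DNA at replication origins, were tested, with 2 positive and 4 negative differences and a median log2 difference of -0.09. Mcm4 had 188, 277, 215 and 329 normalized counts in saline libraries 1 to 4 and 307, 380, 310 and 306 in ethanol libraries 1 to 4. Saline 1, saline 2 and saline 3 were below every ethanol library and saline 4 was above all of them but ethanol 2, so the groups overlapped. The fold was 1.32 (95% interval 1.005 to 1.72, unadjusted p = 0.0465, adjusted p = 0.997 in limma). Mcm7 moved to the other side, with 403, 444, 536 and 599 in saline and 337, 431, 366 and 487 in ethanol. Its groups overlapped too, and the fold was 0.820 (0.649 to 1.03, unadjusted p = 0.0885 in limma). Mcm3, the most abundant subunit transcript, had 1033 ± 104 in saline (SD, n = 4) and 954 ± 26 in ethanol (SD, n = 4), a fold of 0.927 (0.801 to 1.07). The remaining subunits had folds of 0.834 for Mcm2, 0.952 for Mcm5 and 1.03 for Mcm6.

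Rrm2, the regulated small subunit of ribonucleotide reductase, which makes the deoxynucleotides for replication, had the smallest p of the 35 genes. It had 70.3, 61.8, 44.9 and 34.5 normalized counts in saline libraries 1 to 4 and 16.3, 20.1, 37.1 and 31.9 in ethanol libraries 1 to 4. The 3 highest values were saline and the 2 lowest were ethanol, while saline 4 lay between ethanol 4 and ethanol 3. Its fold was 0.5 (95% interval 0.277 to 0.905, unadjusted p = 0.0247, adjusted p = 0.997 in limma). The large subunit gene Rrm1 did not show the same pattern, with 530, 547, 577 and 719 in saline and 475, 558, 671 and 916 in ethanol (fold 1.08, 0.837 to 1.39). Pcna, the clamp that holds polymerases on DNA, had 376, 388, 408 and 345 in saline and 305, 278, 361 and 311 in ethanol. Of the ethanol libraries only ethanol 3 reached the saline values, and the fold was 0.825 (0.671 to 1.02, unadjusted p = 0.0670 in limma). Tyms, which makes thymidylate, had 393 ± 53.1 in saline (SD, n = 4) and 394 ± 30.8 in ethanol (SD, n = 4), a fold of 1.01 (0.817 to 1.24).

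Mitotic cyclins and Cdk1, the kinase they activate, were present in every library at 4.54 to 75.4 normalized counts, with 1 positive and 3 negative differences and a median log2 difference of -0.22. Cdk1 had 36.1, 58.9, 45.9 and 75.4 in saline libraries 1 to 4 and 65.2, 41.1, 18.1 and 25.7 in ethanol libraries 1 to 4, so that ethanol 3 and ethanol 4 were lowest and ethanol 1 was second only to saline 4. Its fold was 0.650 (95% interval 0.350 to 1.21). Ccna2, which acts in S and G2 phase, had a fold of 0.770 (0.394 to 1.5). Ccnb1 had 24.0, 23.2, 42.8 and 4.54 in saline and 36.9, 22.1, 5.01 and 57.6 in ethanol. Its lowest and its second lowest value thus came from different groups with 5 reads each, and the fold of 1.2 had an interval of 0.413 to 3.51. Ccnb2 had 9.08 to 41.5 in saline and 10.3 to 52.1 in ethanol, with a fold of 0.963 (0.407 to 2.28). The table also holds the row Ccnb2-ps, a pseudogene by its symbol, whose mean of 79.2 exceeded the 28.1 of Ccnb2 itself, so reads of the 2 copies may not be cleanly divided.

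Mki67 had 39.8, 8.69, 65.2 and 94.5 normalized counts in saline libraries 1 to 4 and 48.9, 62.2, 29.1 and 11.3 in ethanol libraries 1 to 4. The lowest value, saline 2, and the highest, saline 4, belonged to the same group, and the fold was 0.827 (95% interval 0.322 to 2.13). Top2a, the topoisomerase that untangles replicated chromosomes, had 71.2, 41.5, 28.5 and 34.5 in saline and 47.8, 39.1, 79.2 and 9.26 in ethanol. Arithmetic means of Top2a were 43.9 and 43.8, while the fold on the log scale was 0.841 (0.382 to 1.85), and ethanol 4 was the lowest library by far. Hmgb2, a chromatin protein made by dividing and by some resting cells, was far more abundant and tighter, at 418 to 574 in saline and 410 to 597 in ethanol (fold 1.05, 0.840 to 1.32).

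Genes of the spindle checkpoint and of mitotic exit were among the scarcest, and the 4 that could be tested had positive differences in limma, none past the threshold, with a median log2 difference of 0.43. That direction did not hold for Aurkb, at -0.30 in edgeR and in DESeq2 and at -0.27 without saline 1, nor for Cdc20, at -0.22 without saline 3 and -0.09 without ethanol 2. Aurkb, a kinase that corrects chromosome attachment, had 5.55, 11.6, 84.6 and 33.6 normalized counts in saline libraries 1 to 4 and 36.9, 30.1, 21.1 and 21.6 in ethanol libraries 1 to 4. The saline values enclosed all 4 ethanol values, and the fold of 1.25 (95% interval 0.477 to 3.25) had the opposite sign to the arithmetic means of 33.8 and 27.4. Birc5, or survivin, its partner in the chromosomal passenger complex, had 9.25, 9.65, 36.7 and 39.1 in saline and 14.1, 42.1, 41.1 and 26.8 in ethanol (fold 1.47, 0.632 to 3.40), and its log2 difference of 0.55 was 0.23 without saline 1. Bub1, a checkpoint kinase, had 0 reads in saline 1 and 4.54 to 20.3 in the other 7 libraries, and its fitted fold of 2.36 (0.623 to 8.90) depends on that library, since the log2 difference of 1.24 became 0.37 without it. Cdc20, an activator of the anaphase-promoting complex, had 10.2 to 36.1 in saline and 15.0 to 38.1 in ethanol (fold 1.09, 0.513 to 2.31). Ube2c, the ubiquitin-conjugating enzyme of that complex, was too low to be tested, with 11.1, 8.69, 28.5 and 1.82 in saline and 0, 13, 9.03 and 3.09 in ethanol.

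Of the 7 spindle and centromere genes 3 had positive and 4 negative differences, with a median log2 difference of -0.03, and several varied widely between libraries. Kif11, the motor that separates spindle poles, had 6.47, 29.0, 38.7 and 0 normalized counts in saline libraries 1 to 4 and 5.43, 44.1, 22.1 and 32.9 in ethanol libraries 1 to 4. Low and high libraries occurred in both groups, and the fitted fold of 2.25 (95% interval 0.531 to 9.51) rests on the value of 0 in saline 4, without which the log2 difference of 1.17 became 0.075. Hmmr, a spindle-associated protein, had 11.1, 3.86, 45.9 and 11.8 in saline and 23.9, 47.1, 1.00 and 9.26 in ethanol, a range of 1 to 47 reads (fold 0.914, 0.238 to 3.51). Tpx2, which nucleates spindle microtubules, had 4.54 to 68.4 in saline and 24.7 to 52.1 in ethanol (fold 1.76, 0.705 to 4.39), and its log2 difference of 0.81 was 0.20 without saline 4. Cenpf and Nusap1, a microtubule-bundling protein, were highest in saline 3 at 83.6 and 81.6. Their folds were 0.691 (0.276 to 1.73) and 0.899 (0.387 to 2.09), and the log2 difference of Cenpf, -0.53, was -0.10 without saline 3 and -0.02 without ethanol 4. Cenpa, the histone variant that marks centromeres, was steadier at 47.9 to 136 in saline and 57.1 to 87.2 in ethanol (fold 0.979, 0.601 to 1.6). Stmn1 had 409 ± 104 in saline (SD, n = 4) and 413 ± 93.0 in ethanol (SD, n = 4), a fold of 1.01 (0.763 to 1.35).

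**Figure D3:**
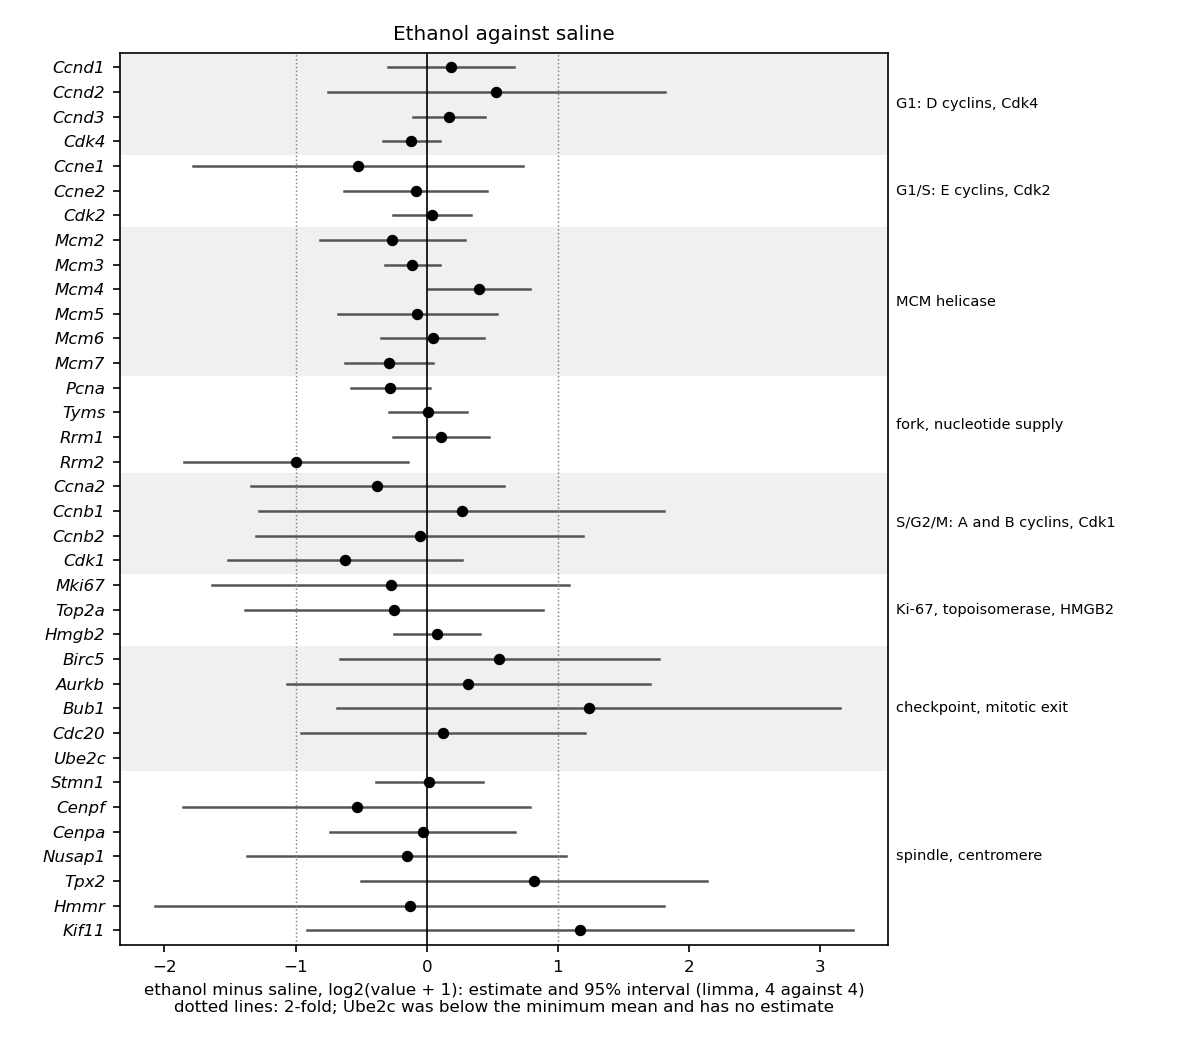
Difference ethanol minus saline on the log2(value + 1) scale with its 95% interval from limma for the 35 tested genes (4 libraries against 4), ordered by role; the solid line marks no difference and dotted lines mark 2-fold. Intervals of 33 genes include 0, Mcm4 and Rrm2 lie beside it, and the intervals of mitotic genes are widest.

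The size of change that the intervals excluded went with the level of a gene. All 13 genes with a mean of at least 100 had an interval that excluded a 2-fold change in either direction, whereas 4 of the 22 tested genes below 100 did, namely Ccne2, Mcm2, Mcm5 and Cenpa. Of the 35 genes together 17 did, against 73.2% of all tested genes. The intervals of the other 18 reached 2-fold in at least 1 direction, so a difference of that size and direction was not excluded at this depth and spread. For Mki67, Ccnb1 and Aurkb this held in both directions, while the upper bounds of Cdk1, Ccna2 and Top2a, at 1.21, 1.5 and 1.85, lay below 2-fold.

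A wider list of 117 other cell cycle genes gave the same count of calls, with 0 of 104 tested genes past the threshold in limma, 49 positive and 55 negative differences and a median log2 difference of -0.02. At an unadjusted p under 0.05 there was 1 of the 104 genes on the higher side, Pttg1, against 245 of all 14428 tested genes (1.7%). On the lower side there were 5 of the 104, Pole, Cdkn1b, Ckap2, Rpa2 and Lin52, against 279 of all tested genes (1.93%). The share in the list was thus smaller than over all tested genes on the higher side and larger on the lower side. Pole, the catalytic subunit of the leading strand polymerase, had 16.6, 16.4, 26.5 and 32.7 normalized counts in saline libraries 1 to 4 and 2.17, 0, 12 and 0 in ethanol libraries 1 to 4. Every ethanol library lay below every saline library, which was so for 1 of the 104 genes and for 1.2% of all tested genes. The adjusted p in limma was 0.997 (unadjusted p = 0.00287). Of the 25 polymerase and fork genes of the list, Pole included, 11 had positive and 14 negative differences, with a median log2 difference of -0.0011. Cdkn1b, or p27, an inhibitor of Cdk2 complexes, had 448, 460, 556 and 398 in saline and 275, 407, 386 and 349 in ethanol, a fold of 0.759 (95% interval 0.604 to 0.954), and only ethanol 2 reached above the lowest saline library. Pttg1, or securin, an inhibitor of sister chromatid separation before anaphase, had 1216 ± 113 in saline (SD, n = 4) and 1435 ± 108 in ethanol (SD, n = 4), a fold of 1.18 (1.02 to 1.36). The replication protein gene Rpa2 had a fold of 0.744 (0.559 to 0.992), the MuvB subunit gene Lin52 one of 0.822 (0.676 to 1.00) and the spindle protein gene Ckap2, with 16.8 normalized counts on average, one of 0.318 (0.112 to 0.904).

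Regulators upstream of these genes were also measured. E2f1, one of the activating E2F genes, had 25, 36.7, 32.6 and 23.6 normalized counts in saline libraries 1 to 4 and 38.0, 40.1, 47.1 and 46.3 in ethanol libraries 1 to 4. The ethanol libraries lay above the saline libraries, which was so for 1 of the 104 genes of the wider list and for 1.12% of all tested genes. The fold was 1.46 (95% interval 0.860 to 2.47), and the unadjusted p in limma was 0.150. In the other activating genes, E2f2 and E2f3, the groups overlapped, and of the 16 tested genes of the retinoblastoma, E2F and MuvB list 7 had positive and 9 negative differences. Rb1, the retinoblastoma gene, had 1062 ± 181 in saline (SD, n = 4) and 1091 ± 10.5 in ethanol (SD, n = 4), a fold of 1.04 (0.873 to 1.24). Cdkn1a, or p21, a damage-induced inhibitor, had a fold of 0.919 (0.593 to 1.42) and a high value of 300.1 in saline 2. Cdkn2c, or p18, an inhibitor of Cdk4, had a fold of 1.06 (0.765 to 1.46). The mitotic activator gene Foxm1 had 26.3 to 78.6 in saline and 19.6 to 63.0 in ethanol, a fold of 0.841 (0.450 to 1.57). Its partner gene Mybl2, or B-Myb, was below the minimum for testing, at 1.03 to 11.2 over the 8 libraries.

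Values differed between libraries of a group in both ranges of level. Among the 23 genes with a mean under 100 the median coefficient of variation within groups was 55.5%, where reads counted at random would give 18.1%. From the lowest to the highest library the values spanned 1.61-fold to 47.0-fold in the 20 of these genes that had no 0. Among the 13 abundant genes the median coefficient of variation was 17.3% against 4.68% from counting, and the span was 1.29-fold to 2.24-fold. The libraries were amplified from 500 pg of total RNA with no molecular identifiers, so reads are not independent molecules and the counting figure covers the counting of reads only.

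As a ratio to counting, the spread was larger among abundant genes, and in both ranges the median of the cell cycle genes lay above that of all genes. The variance within groups was 9.38 times that from counting at the median of the 22 tested genes with a mean of 10 to 100, and 5.74 times (quartiles 3.40 and 9.29) over all 4640 tested genes in that range. With a mean of at least 100 it was 12.1 times in the 13 genes and 9.15 times (quartiles 5.71 and 14.5) over 6904 tested genes of like level. In 16 of the 22 scarce genes and 8 of the 13 abundant ones the SD between libraries was above the median of tested genes whose mean lay within 1.5-fold. Mki67, for example, had an SD of 1.26 on the log2 scale where such genes had a median of 0.57, Kif11 one of 1.93 against 0.77, Hmmr one of 1.70 against 0.81 and Ccnb1 one of 1.35 against 0.70. Ccne1, Ccne2, Mcm2 and Rrm2 were steadier than genes of their level, at 0.49, 0.22, 0.27 and 0.50 against 0.93, 0.43, 0.42 and 0.60. These comparisons are descriptions of the 8 libraries, and no test was made of them.

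**Figure D4:**
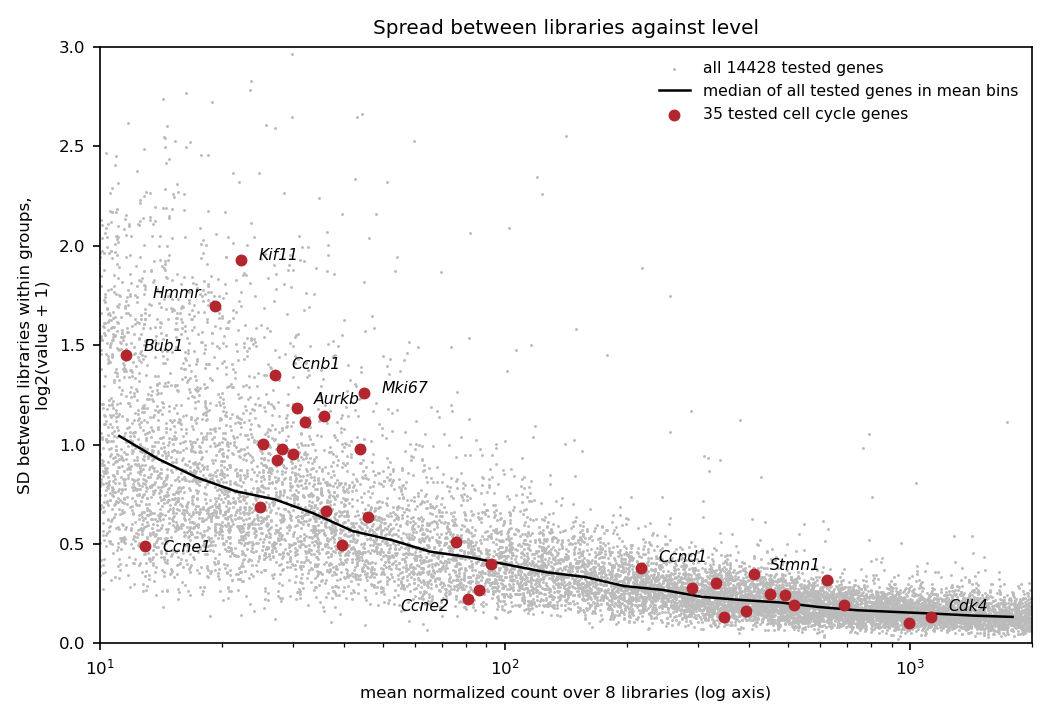
SD between libraries within groups on the log2(value + 1) scale against the mean normalized count (log axis) for all 14428 tested genes (grey), their median in bins of the mean (line) and the 35 tested cell cycle genes (red); genes beyond the ends of the axes are not drawn. Kif11, Hmmr, Ccnb1, Mki67 and Aurkb lie above the line, and the abundant genes lie near it.

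Across the 8 libraries, pairs of cell cycle genes rose and fell together about as rarely as pairs of all tested genes. Pearson correlations of log2(value + 1) were computed for all 595 pairs of the 35 tested genes, and 5 pairs, or 0.84%, had an r of at least 0.8, against 1.1% of all pairs of tested genes. The median r was -0.03, and it was 0.04 for the 120 pairs of the 16 mitotic genes with a mean of 10 to 100, of which 1 pair reached 0.8 (0.833%, against 1.16% of all pairs of tested genes in that range of means). Among the 13 abundant genes 0 of 78 pairs did, against 1.22% of all pairs of tested genes with a mean of at least 100. Without 1 library the count of 5 became 6 (saline 4 left out), 7 (ethanol 2), 8 (saline 2, ethanol 3 or ethanol 4), 9 (saline 1 or ethanol 1) or 14 (saline 3). With 7 libraries 1.80% to 1.90% of all pairs of tested genes reached 0.8. The 14 pairs without saline 3 were 2.35%, above the 1.86% of all pairs of tested genes. Without any other library the share was 1.01% to 1.51%. The 11 tested genes whose promoters hold both TTTGAA and CCAAT, printed above for Mki67, Top2a and Ccnb2, had a median r of 0.0015 over 55 pairs, between -0.78 and 0.73. The 6 tested genes with E2F letters, among them Mcm5 and Mcm6, had a median of 0.02 over 15 pairs. Cdk1 was in both groups, and the first group also held Mcm2 and Hmgb2. Genes without a matched promoter, such as Ccna2, Aurkb and Tpx2, were in neither group. In two-sided exact permutation tests 0 of the 595 pairs passed a Benjamini-Hochberg threshold of 0.05, with a smallest adjusted p of 0.903 for Pearson's r and 0.797 for Spearman's rho, and 25 and 29 pairs had an unadjusted p under 0.05. With 8 libraries, a p above the threshold does not show that genes varied independently.

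Pairs of genes with a common role had correlations of either sign. Mki67 and Top2a, both markers of proliferating cells, had an r of 0.30 and a rho of -0.26 (exact permutation p = 0.475 and 0.536, adjusted p = 0.935 and 0.953). Without saline 2 and ethanol 4, the libraries farthest from the median of Mki67, r was -0.89, so the positive sign rests on those libraries. Mki67 and Birc5 had an r of 0.46 and a rho of 0.45 (exact permutation p = 0.244 and 0.268, adjusted p = 0.903 and 0.900), and r was 0.34 without the same libraries. For Mcm5 and Mcm6 r was -0.27 and rho -0.31 (exact permutation p = 0.524 and 0.462, adjusted p = 0.935 for both). Mki67 and the G1 cyclin gene Ccnd1 had an r of 0.10 and a rho of 0.12 (exact permutation p = 0.817 and 0.793, adjusted p = 0.968 and 0.991). Leaving out the 2 farthest libraries gave -0.74 for the MCM pair, without saline 3 and ethanol 4, and -0.55 for the last pair. Over the 15 pairs of MCM subunits r lay between -0.52 for Mcm6 with Mcm7 and 0.70 for Mcm5 with Mcm7, and Mcm2 with Mcm3 had an r of 0.48 and a rho of 0.74. Mki67 and Ccna2, both of proliferating cells, had an r of 0.82 and a rho of 0.86 (exact permutation p = 0.0135 and 0.0107, adjusted p = 0.903 and 0.797), the mitotic pair counted above, and r was 0.41 without saline 2 and ethanol 4.

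Of the 5 pairs with an r of at least 0.8, 1 joined genes of the same role group, Pcna and Rrm2. Mcm5 and Stmn1 had an r of 0.88 and a rho of 0.88 (exact permutation p = 0.00226 and 0.00724, adjusted p = 0.903 and 0.797), and r was 0.93 without saline 3 and ethanol 4. Cdk2 and Kif11 had an r of 0.87 but a rho of 0.50 (exact permutation p = 0.0205 and 0.216, adjusted p = 0.903 and 0.900). Without saline 4 and ethanol 1, where Kif11 had 0 and 5 reads, that r fell to -0.17, so it rests on them. Pcna and Rrm2, which both act at the fork or supply it, had an r of 0.84 and a rho of 0.88 (exact permutation p = 0.0092 and 0.00724, adjusted p = 0.903 and 0.797), and r was 0.67 without ethanol 1 and ethanol 2. In ethanol 1 and ethanol 2 all 4 genes of the fork and nucleotide group lay below their means over libraries, on average by -0.43 and -0.33 on the log2 scale. The remaining pair, Ccnd3 and Bub1, had an r of 0.84 and a rho of 0.76 (exact permutation p = 0.00766 and 0.0368, adjusted p = 0.903 and 0.879). An r of at most -0.8 occurred in 3 pairs, or 0.504%, against 0.976% of all pairs of tested genes. They were Ccnd1 with Cdk4 (-0.87, rho -0.67), Stmn1 with Cenpa (-0.85, rho -0.79) and Mcm7 with Tpx2 (-0.84, rho -0.90). The first 2 were within a role group, or 3.03% of the 66 such pairs, of which 1.52% had an r of at least 0.8. Without the 2 libraries farthest from the median of the first gene, r was -0.64, -0.92 and -0.89. The number of libraries in a group, 4, is too small for a correlation within ethanol or within saline.

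**Figure D5:**
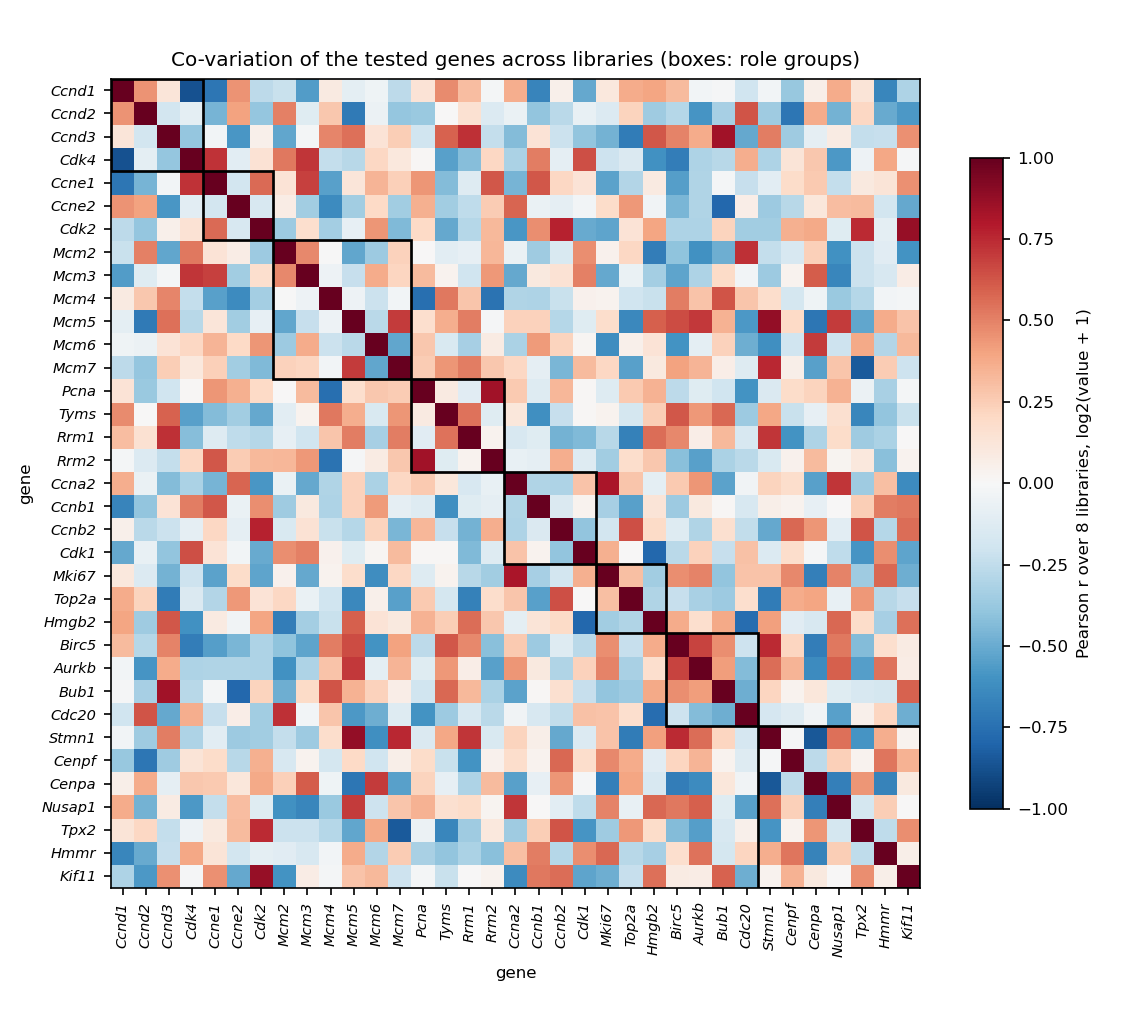
Pearson r over the 8 libraries for each pair of the 35 tested genes, ordered by role, with boxes around role groups (red positive, blue negative). The boxes hold positive and negative values alike, and the median r over all pairs was -0.03.

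Averaged over the 35 tested genes, the deviation from each gene's mean over libraries was highest in saline 3, at 0.25 on the log2 scale with 23 genes above their mean, and lowest in saline 4, at -0.15 with 19. Saline 3 was above the mean in 7 of the 8 role groups, by 0.79 in the spindle, 0.51 in the mitotic cyclin and 0.40 in the checkpoint group, and below it in the G1 cyclin group, at -0.58. Single genes departed from these averages. Saline 3 had the highest values of Aurkb, Cenpf, Nusap1 and Ube2c, at 84.6, 83.6, 81.6 and 28.5 normalized counts, but the lowest of Ccnd2, Cdc20 and Top2a within saline, at 4.08, 10.2 and 28.5. Saline 4 had the highest values of Mki67, Cdk1 and Ccna2, at 94.5, 75.4 and 58.1, together with the lowest of Kif11, Ccnb1, Tpx2 and Ccnb2, at 0, 4.54, 4.54 and 9.08. Of the 23 scarce genes, saline 3 and saline 4 each held the highest value of 5, ethanol 2 of 4, and saline 3, saline 4 and saline 1 each also held the lowest value of 4. Ethanol 1 held the highest value of none of the 36 genes.

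Markers of microglia made up 4.48% to 4.76% of the normalized counts in saline and 4.73% to 4.94% in ethanol libraries, with all 8 markers present. Markers of other cells that could bring cell cycle transcripts were also measured, and not all of them were present. Neutrophil and precursor markers made up 0.0169% to 0.0931% in saline and 0.0162% to 0.0656% in ethanol, with 6 of 8 at a mean of at least 10, and their share exceeded that of the 36 cell cycle genes together in saline 1 and ethanol 4. Elane and Mpo, granule genes of dividing granulocyte precursors, were at 20.3 and 18.5 normalized counts in saline 1 and 11.2 and 5.10 in saline 3, and at 0 in saline 2, saline 4, ethanol 1 and ethanol 2. In ethanol 3 and ethanol 4 Elane was at 1.00 and 1.03, and Mpo at 0. Tpx2, Rrm2 and Foxm1 were highest in saline 1, Aurkb, Cenpf, Nusap1 and Ube2c in saline 3, and Mki67, Cdk1 and Ccna2 in saline 4. Aurkb, Birc5 and Bub1 were lowest in saline 1. Ethanol 4, with neutrophil and precursor markers at 0.0656%, had the lowest share of the 23 scarce genes, 0.00455%. Monocyte markers made up 0.00217% to 0.00727% in saline and 0.0019% to 0.00449% in ethanol, and border macrophage markers 0.00323% to 0.0157% and 0.00516% to 0.00792%. Oligodendrocyte precursor markers made up 0% to 0.000121% in saline and 0% to 0.000399% in ethanol, and none of the 5 had a mean of at least 10. Neural progenitor and neuroblast markers made up 2.32e-05% to 0.000222% in saline and 0.000154% to 0.00043% in ethanol, and 1 of the 7 had a mean of at least 10. Astrocyte markers made up 0.0361% to 0.0437% in saline and 0.0339% to 0.0465% in ethanol, with Slc1a3 the most abundant of them. Endothelial markers made up 0.00332% to 0.00409% in saline and 0.0037% to 0.00446% in ethanol. Lymphocyte markers made up 0.00412% to 0.00662% in saline and 0.00371% to 0.00659% in ethanol. Of the 8 markers only Cd79b had a mean of at least 10, at 654 to 1020 normalized counts in saline and 563 to 1033 in ethanol. Cd3e, Cd3d, Trac and Ms4a1 were at 0 in all libraries. The part of these cells in the spread of the cycle genes was not tested.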

How the data were processed

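Sorted microglia gave 8 RNA-seq libraries. Per the labels' protocols, 500 pg of total RNA was amplified with a SMARTer ultra low input kit, 150 pg of cDNA went into NexteraXT libraries, which do not mark strand, and reads of 150 nt were sequenced in pairs. STAR 2.7.9a, featureCounts 2.0.1 of Subread, DESeq2 under R 4.2.2, Salmon 1.5.2 and bcl2fastq 2.19.1 are named, with GRCm39, per the submitters' processing notes. The annotation they used is not given in the sources used here. The authors deposited signal values, by the table's name DESeq2-normalized counts. A library's lowest value above 0 was taken as 1 read, which made 100% of the values whole within 1e-06, so reads were recovered.

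The test was limma 3.58.1 (R 4.3.3, trend, two-sided) on log2 of the deposited value plus 1, with Benjamini-Hochberg adjustment over 14428 genes whose mean reached 10. Folds are on that scale, which understates changes of low genes. Pairs of genes were tested by exact permutation. Intervals are at 95%. The tests were tried on simulated data. Alternatives were other pseudocounts, filters and scalings, edgeR 4.0.16, DESeq2 1.42.0 and voom on recovered reads, a block, covariates and leaving out libraries. All 36 genes are named whatever their result. From the wider list, genes with an unadjusted p under 0.05 (at most 6) and 7 regulators are named, and 4 gene pairs plus the 3 with the highest r. Members and lists were chosen with earlier results of these data known. Libraries and genes named for their high or low values were chosen after those were seen, as were the pairs beyond these 7 and E2f2 and E2f3.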

Additional observations from a re-analysis of the deposited data

Results flagged for a closer look

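In 5 of 96 groups of 4 libraries, over the 36 genes and 12 of the wider list, the highest or lowest library stood farther from the rest than Dixon's 95% limit allows, and chance alone gives about 1 in 20. Cdk2 was lowest in saline 4 at 386.1 normalized counts, where the other saline libraries had 543 to 572. Mcm3 was highest in saline 2 at 1187, where the next had 999.2. Mcm4 was highest among ethanol libraries in ethanol 2 at 380.0, with the others between 306 and 310. Cenpf reached 83.6 in saline 3, with 28.7 in the next. Cdkn1a reached 300.1 in saline 2, with 125 in the next.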

How the results depend on the processing

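Of the 36 genes 0 were called under every alternative that was run, and the median log2 difference of the tested members stayed between -0.0921 and 0.0186 when each library was left out. Over all genes the count stayed 0 except in edgeR without a filter, which called 2 genes, Mcpt8 and Prss34, neither of them a cell cycle gene of the lists used here. Of 46 named genes with a test, 23 kept the sign of their difference under each alternative run, among them Mcm4, Mcm7, Pcna, Rrm2, Cdk1, Pole, Cdkn1b, Pttg1 and E2f1. Signs turned in edgeR for Top2a (log2 difference 0.0018), Ccnb2 (0.038), Aurkb (-0.30) and Hmmr (0.17). They turned in edgeR without a filter for Ccnb2 (0.034), Aurkb (-0.30) and Hmmr (0.17), and in DESeq2 for Ccnb2 (0.033), Aurkb (-0.30) and Hmmr (0.17). A pseudocount of 5 gave 0.0201 for Hmmr, and a covariate for the number that library names carry gave -0.0303 for Mcm6 and 0.039 for Nusap1. With that covariate 0 members had an unadjusted p under 0.05. The cause was not tested. Leaving out each library turned the sign of 23 genes at least once, with log2 differences of Aurkb -0.271 to 0.966, Ccnb1 -0.34 to 0.924, Ccnb2 -0.499 to 0.319, Ccnd1 -0.0422 to 0.343, Ccnd2 -0.103 to 0.845, Ccne2 -0.164 to 0.016, Cdc20 -0.218 to 0.357, Cdk2 -0.0898 to 0.0991, Cdkn1a -0.317 to 0.227, Cdkn2c -0.04 to 0.188, Cenpa -0.229 to 0.267, Foxm1 -0.546 to 0.102, Hmgb2 -0.0098 to 0.171, Hmmr -0.777 to 0.752, Mcm5 -0.21 to 0.15, Mcm6 -0.0818 to 0.18, Mki67 -0.953 to 0.198, Nusap1 -0.654 to 0.376, Rb1 -0.0726 to 0.13, Rrm1 -0.0666 to 0.249, Stmn1 -0.112 to 0.141, Top2a -0.64 to 0.349 and Tyms -0.0796 to 0.0811. The number of pairs with an r of at least 0.8 was 1 of 136 with a mean of at least 50, where fewer genes enter. It was 6 to 14 of 595 when each library was left out. It exceeded 1.5 times the full count without saline 1 (9), saline 2 (8), saline 3 (14), ethanol 1 (9), ethanol 3 (8) or ethanol 4 (8), and over all tested genes the share with 7 libraries was 1.80% to 1.90%. Without saline 3 the shares were 2.35% of the member pairs and 1.86% of all pairs of tested genes. The correlations of same-numbered deviations were 0.03, 0.06, 0.08 and 0.01, and not every library correlated best with its own number. Between the groups the correlations were 0.014 to 0.137 within samples 1 and 2 or within samples 3 and 4. Across these sets they were -0.105 to -0.023. Whether libraries are paired by their sample number cannot be told from these values. With the number as a replicate block 0 members were called, the median was -0.03, and Mcm4, Mcm7 and Rrm2 had an unadjusted p under 0.05. A term that sets samples 1 and 2 apart from 3 and 4, added after the data were seen, left 0 called and the genes under 0.05 were Mcm4 and Rrm2. Genes below 100 normalized counts are limited by low counts and by the spread between libraries.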
